A study of Daphnia magna with 40 samples.

Results

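The 100 array probes described here were those whose mean signal moved furthest in the same direction in adult and in juvenile Daphnia magna exposed to nonylphenol. The array carried 14338 probes, and 9092 of them were well above background on at least 15 of the 20 adult arrays and at least 15 of the 20 juvenile arrays. For each of these 9092 probes the change was the mean of 8 nonylphenol arrays minus the mean of 4 acetone arrays of the same stage. The 50 probes with the largest smaller-of-both-stages change are called the higher members, and the 50 probes whose less negative change was the most negative are called the lower members. Because these changes chose the probes, they are given below as a description, and no test of them is used as support.

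The arrays are one-colour Agilent expression arrays hybridised with RNA of whole animals of clone F, a single parthenogenetic laboratory line, so replicates are not genetically different animals. The study was set up around selective serotonin reuptake inhibitors, and nonylphenol was a further exposure in the same set of 40 arrays. Each stage had 5 groups of 4 arrays. These were nonylphenol at 20 µg/L (NP20) or 60 µg/L (NP60), 40 µg/L fluoxetine (FX40), 10 µg/L fluvoxamine (FV10) and acetone, and the acetone carrier was present in every group at 0.1 ml/L. These doses are those of the labels, whereas the design text has 80 ppb (fluoxetine) and 30 ppb (fluvoxamine), a difference that could not be resolved. Adults were gravid females, first exposed when 8 to 9 days old. Their exposure lasted for 3 broods, or 10 to 14 days, and eggs were removed from the females by flushing. How many females made up an adult sample is not stated, so the spread between adult arrays may be partly technical. Juveniles were under 24 h old at the start, were exposed for 3 days and were pooled by 20, in 4 separate vessels per treatment.

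Nonylphenol is a breakdown product of nonionic surfactants that reaches fresh water with sewage effluents. It binds the oestrogen receptor of vertebrates weakly, and in Daphnia it is used as a model toxicant in tests of growth, moulting and reproduction. Fluoxetine and fluvoxamine block the serotonin transporter, which takes serotonin back up from the synapse, and serve here as exposures whose values did not enter the choice of probes.

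Values are scaled log2 signals, meaning log2 of the processed signal minus the 75th percentile of the array's non-control spots, so a difference of 1 is a doubling. The arrays lay on 7 slides, each slide held arrays of both stages, and no array pair was a duplicate. The log2 of that 75th percentile, a measure of array brightness, was 8.25 ± 0.58 on adult nonylphenol arrays (SD, n = 8) and 7.38 ± 0.74 on adult acetone arrays (SD, n = 4), with a two-sided exact permutation p of 0.0687 (0.137 adjusted over both stages). In juveniles it was 8.86 ± 0.35 with nonylphenol and 8.88 ± 0.50 with acetone, with an exact permutation p of 0.966. The part of brightness in the adult changes was not tested beyond its use as a covariate, with which the median adult change of the higher members was 1.502. None of the probe IDs could be paired with a gene here, so neither gene functions nor markers of a tissue can be given, and members appear by probe ID. In RNA of whole animals, fewer cells of a type and less RNA per cell cannot be told apart.

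The higher members had a median change with nonylphenol of 1.71 in adults (1.18 to 4.02) and of 1.58 in juveniles (1.17 to 2.60). The lower members had a median change of -1.15 in adults (-2.57 to -0.70) and of -1.06 in juveniles (-2.47 to -0.70). Over the 9092 probes the median change was -0.01 in adults and -0.02 in juveniles. At the edge of the choice, the deciding change of the higher member ranked 50 was 1.17 and that of the first probe left out was 1.16. For the lower members the same values were -0.70 and -0.69, so the lists have no gap behind them. The adult change was the larger one in 30 of the 50 higher members and in 30 of the 50 lower members. Within the rule's own contrast limma called 0 of the 100 members in adults, where it called 0.00797% of the 12547 tested probes and 0.011% of the 9092, and 0 in juveniles, where it called 0% of 12880. At an unadjusted p under 0.05, 39 members passed in adults, with 13.9% of the tested probes, and 33 in juveniles, with 6.40%. Since the members were chosen on this contrast, nothing is read from these counts. With normexp background correction, which moved the median of all 9092 probes to -0.34 in adults and -0.20 in juveniles, the median change of the higher members was 0.31 in adults and 0.99 in juveniles. Minus that median of all probes, the median change of the lower members was -0.31 in adults and -0.55 in juveniles.

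The change of the higher members with nonylphenol differed from array to array within each dose. On adult NP20 arrays the median of the 50 higher members was 1.57 on array B, -1.84 on C, -0.30 on E and 0.77 on G, and on adult NP60 arrays it was -2.55 on A, 0.48 on C, -2.32 on F and -2.45 on H. Adult acetone arrays had medians of -2.82, -2.76, -3.002 and -2.003. All 4 adult NP20 arrays thus lay above the acetone arrays, but only 1 of 4 adult NP60 arrays did. On juvenile NP20 arrays the median was 1.63 on A, -1.82 on B, -1.68 on C and 1.55 on D, and on juvenile NP60 arrays it was -2.58 on A, 3.04 on B, -1.28 on C and -1.99 on D. Juvenile acetone arrays had medians of -2.98, -2.19, -2.70 and -1.05. Among the juvenile arrays, 2 of 4 NP20 and 1 of 4 NP60 arrays lay above every acetone array. As mean ± SD of 4 arrays, the median of the higher members was 0.05 ± 1.47 with NP20, -1.71 ± 1.46 with NP60, -2.36 ± 0.35 with FX40, -2.44 ± 0.44 with FV10 and -2.65 ± 0.44 with acetone in adults. In juveniles it was -0.08 ± 1.93 with NP20, -0.70 ± 2.55 with NP60, -2.14 ± 0.38 with FX40, -0.76 ± 1.44 with FV10 and -2.23 ± 0.85 with acetone. Over both stages, 7 of the 16 nonylphenol arrays were above -1.05, the highest of the 8 acetone arrays, and the other 9 were at -1.28 or lower.

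The lower members were spread in another way. Their median was -3.77 on adult NP20 array B, and 1.34, 1.38 and 0.13 on the other adult NP20 arrays C, E and G. On adult NP60 arrays it ran from 0.54 to 0.95, and on adult acetone arrays it was 1.62, 1.43, 0.68 and 2.09. Without adult NP20 B the median change of the lower members in adults was -0.74. In juveniles the median was 0.18, -0.71, -1.28 and -0.92 on NP20 arrays and 0.22, -0.09, -0.47 and -0.77 on NP60 arrays, against 0.52, 1.47, 0.81 and -0.49 on acetone arrays. The group means of the lower members' median were -0.23 ± 2.43 (NP20), 0.74 ± 0.22 (NP60), 0.97 ± 0.57 (FX40), 1.19 ± 0.42 (FV10) and 1.46 ± 0.58 (acetone) in adults, and -0.68 ± 0.62 (NP20), -0.28 ± 0.44 (NP60), 0.13 ± 0.70 (FX40), 0.77 ± 0.53 (FV10) and 0.58 ± 0.81 (acetone) in juveniles (SD, n = 4 each). Of the 8 juvenile nonylphenol arrays, 4 lay below acetone D, the lowest of the acetone arrays.

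Counted probe by probe, 36, 13, 39 and 38 of the 50 higher members lay above the highest acetone array on adult NP20 B, C, E and G, where the shares of all 9092 probes were 23.9%, 21.4%, 23.4% and 14.9%. On adult NP60 A, C, F and H the counts were 9, 38, 7 and 8, beside 15.6%, 17.2%, 15.5% and 11.9% of all probes. In juveniles the counts were 41, 12, 16 and 42 on NP20 A to D, beside 13.9%, 19.6%, 17.6% and 18.8% of all probes. On juvenile NP60 A to D they were 13, 39, 18 and 14, beside 21.8%, 17.9%, 23.3% and 21.0%. Outside the 7 arrays with high list medians, the counts were thus nearer to the share of all probes. The median higher member exceeded all acetone arrays on 4 of 8 nonylphenol arrays in adults and on 3 of 8 in juveniles, and 30 of the 50 did so on exactly 3 in juveniles. No higher member had all 8 adult nonylphenol arrays above all 4 acetone arrays, where 0.682% of the 9092 probes did. In juveniles 2 higher members did, against 0.264% of the probes. For the lower members, 1 had all 8 nonylphenol arrays below the acetone arrays in adults (1.52% of the probes) and 2 did in juveniles (0.561%). These counts, too, come from the contrast that chose the members.

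Each dose was also set against acetone on its own. The higher members had a median NP20 change of 2.52 in adults and 1.99 in juveniles, and a median NP60 change of 0.95 in adults and 1.36 in juveniles. Single arrays weighed on the NP60 values, which were 0.21 in adults without NP60 C and 0.17 in juveniles without NP60 B. With normexp background correction the median NP60 change in adults was -0.40, where the median of all 9092 probes was -0.38 and 25 of the 50 higher members lay above it. The lower members had a median NP20 change of -1.57 in adults and -1.18 in juveniles, and a median NP60 change of -0.76 in adults and -1.03 in juveniles. The adult NP20 value was -0.72 without NP20 B. With normexp background correction the lower members' median NP60 change in adults was -0.379, where the median of all 9092 probes was -0.376. In adults 6 higher members had all NP20 arrays above all acetone arrays (2.42% of the 9092 probes) and 5 lower members had them below (5.08%), and for NP60 the counts were 0 (1.69%) and 4 (3.26%). In juveniles they were 4 (1.58%) and 7 (2.13%) for NP20 and 4 (1.5%) and 8 (2.2%) for NP60. The same arrays chose the members, so nothing is read from these counts beside the shares of all probes.

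The 2 first-ranked higher members illustrate the pattern over arrays. Probe DM06785P4 read 7.28, -1.55, 1.57 and 2.47 on adult NP20 arrays and -1.52, 1.30, -2.01 and -1.26 on adult NP60 arrays, against -1.04, -1.06, -3.81 and -0.67 on adult acetone arrays. In juveniles it read 3.01, -1.75, -1.98 and 3.35 with NP20 and -2.63, 6.09, -1.28 and -1.90 with NP60, against -3.87, -0.89, -1.66 and -2.53 with acetone. Adult NP20 B, E and G, adult NP60 C, juvenile NP20 A and D and juvenile NP60 B were high, and the rest overlapped the acetone arrays. Its change over both doses was 2.43 in adults and 2.60 in juveniles, with 1.60 in juveniles without NP60 array B. With normexp background correction it was 1.30 in adults and 1.56 in juveniles. Its group means were 2.44 ± 3.66 (NP20), -0.87 ± 1.48 (NP60) and -1.65 ± 1.45 (acetone) in adults, and 0.66 ± 2.92 (NP20), 0.07 ± 4.05 (NP60) and -2.24 ± 1.28 (acetone) in juveniles (SD, n = 4 each).

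Probe DM04554P2 read 2.79, -4.36, -0.29 and 1.46 on adult NP20 arrays and -3.38, -0.08, -3.65 and -3.72 on adult NP60 arrays, against -6.32, -5.38, -3.13 and -3.34 on adult acetone arrays, where it was well above background on 2 of 4. In juveniles it read 3.78, -1.93, -2.01 and 2.83 with NP20 and -3.16, 5.34, -1.11 and -1.45 with NP60, against -2.12, -3.13, -3.53 and 0.37 with acetone. The high arrays were the same ones as for DM06785P4. Its change was 3.13 in adults and 2.39 in juveniles. With normexp background correction the adult change was 0.55, and without juvenile NP60 B the juvenile change was 1.48.

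The 2 first-ranked lower members also differed between arrays of a group. Probe DM14525P1 read -6.67, 2.24, 4.04 and 0.16 on adult NP20 arrays and -2.06, 2.31, -0.54 and -1.92 on adult NP60 arrays, against 1.53, 1.39, -1.91 and 5.72 on adult acetone arrays. In juveniles it read 3.91, 2.91, -3.23 and -2.08 with NP20 and 3.90, 3.60, 1.39 and -2.13 with NP60, against 4.31, 4.80, 4.56 and -1.02 with acetone. The groups overlapped in both stages. Its change was -1.99 in adults and -2.13 in juveniles, and in adults it was -0.64 without acetone G, -3.18 without acetone F, -0.88 without NP20 B and -0.64 once spots with an outlier mark were left out. In juveniles it was -3.52 without acetone D, -3.29 with array weights and -1.14 with slide as a block.

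Probe DM12400P2 read -4.80, 3.86, 3.19 and 0.24 on adult NP20 arrays and 1.34, 2.65, 2.77 and 2.97 on adult NP60 arrays, against 3.66, 3.26, 2.69 and 5.49 on adult acetone arrays. In juveniles it read 4.06, 4.24, 0.48 and 0.14 with NP20 and 4.29, 4.10, 0.97 and 1.53 with NP60, against 4.17, 5.82, 5.37 and 1.16 with acetone. Adult NP20 arrays B and G were lowest, and NP60 A and, by little, NP60 C also lay below every adult acetone array. In juveniles the low arrays were NP20 C and D and NP60 C and D, with acetone D beside them. Its change was -2.25 in adults and -1.65 in juveniles. Without adult NP20 B the adult change was -1.34, and with normexp background correction it was -0.90. The juvenile change was -1.09 without acetone B, -2.64 without acetone D and -1.04 with slide as a block.

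The spread among nonylphenol arrays was wide over the lists as a whole. A higher member ranged over a median of 6.55 log2 units across the 8 adult nonylphenol arrays and 6.38 across the 8 juvenile ones, against medians of 1.41 and 1.31 over the 9092 probes. A lower member ranged over a median of 4.37 in adults and 3.03 in juveniles. The rule used these same arrays, so the ranges are a description.

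Within slides that held both kinds of array, the difference between nonylphenol and acetone was not the same on each. The median difference of the higher members in adults was 4.89 on slide 1, 2.15 on slide 3, -0.09 on slide 4 and 0.16 on slide 7. In juveniles it was 0.15 on slide 1, -0.99 on slide 6 and 5.93 on slide 7. The lower members had median differences of -4.13, -0.50, -0.99 and -0.89 on adult slides 1, 3, 4 and 7 and of -0.75, 0.11 and -0.71 on juvenile slides 1, 6 and 7. Each of these values rests on 1 acetone array and 1 or 2 nonylphenol arrays.

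The members did not all move on the same arrays. Grouping them by the correlation of their 40 values, a description chosen after the values were seen, put 32 of the 50 higher members in 1 set with a median pairwise correlation of 0.81, and that set held 9 of the 10 first-ranked. Its median was 4.31, -2.49, -0.04 and 1.84 on adult NP20 B, C, E and G and -2.75, 0.95, -2.96 and -3.09 on adult NP60 A, C, F and H, against -3.40 to -2.20 on adult acetone arrays. In juveniles it was 2.75, -2.03, -2.10 and 2.28 on NP20 A to D and -3.05, 4.19, -1.95 and -2.27 on NP60 A to D, against -3.08 to -0.39 on acetone arrays. The nonylphenol arrays that were not high lay within the range of the acetone arrays of their stage. A second set of 6 higher members was lowest on 1 acetone array of each stage. Its median was -0.11 to 0.60 on adult NP20 arrays and -0.62 to 0.36 on adult NP60 arrays, against -0.24, -0.46, -6.37 and 0.80 on adult acetone B, E, F and G. In juveniles it was -1.06 to 0.13 on NP20 arrays and 0.03 to 0.50 on NP60 arrays, against -0.23, -1.03, -1.23 and -2.65 on acetone A to D. Every juvenile NP60 array of this set thus lay above every juvenile acetone array. The juvenile FX40 arrays did so too, at 0.05 to 0.57, while the juvenile FV10 arrays ran from -0.56 to 0.24. The rest fell into sets of 4, 3 and 2 probes, and 3 probes stood alone.

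Among the lower members, 32 formed a set with a median pairwise correlation of 0.66, whose median was -4.84 on adult NP20 B, against 0.11 to 2.45 on adult acetone arrays. Adult NP20 C and E lay inside that acetone range, E at 1.44, and G lay just below it. Adult NP60 A and H also lay below it, at -0.16 and -0.17, and NP60 C and F lay inside it. In juveniles the set ran from -1.68 to 0.26 on NP20 arrays and from -1.04 to 0.80 on NP60 arrays, against -0.71 to 1.47 on acetone arrays. Juvenile NP20 B, C and D and NP60 D lay below that range. A set of 9 ran from -0.71 to 1.60 on adult NP20 arrays, from 0.21 to 1.89 on adult NP60 arrays and from 1.45 to 1.67 on adult acetone arrays. In juveniles it ran from -0.02 to 0.64 with NP20 and from -1.46 to 0.03 with NP60, against 0.04 to 0.83 with acetone. The highest juvenile NP60 array was just below the lowest acetone array. A set of 7 was high on adult acetone arrays B and E, at 6.37 and 6.44, against 2.95 and 2.93 on acetone F and G and 1.96 to 3.91 on adult NP20 arrays. On adult NP60 arrays it was 1.99 to 2.74, below every adult acetone array. In juveniles this set ran from 0.42 to 2.47 with NP20 and from -0.69 to 1.85 with NP60, against 0.47 to 4.04 with acetone. The 2 remaining lower members formed a pair. Over all 40 arrays the medians of the 2 lists had a Pearson correlation of -0.35, arrays of both stages and all treatments being pooled.

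Other probes followed these lists. A correlation of at least 0.8 with the median of the higher members over the 40 arrays was reached by 27 of the 50 higher members and by 30 of the 8992 probes outside both lists. For the median of the lower members the counts were 16 of 50 and 21 of 8992. The members themselves make up these medians and the other probes do not, so members and other probes are not compared by these counts. The members also differed in their scanner marks. Only 7 of the 50 higher members were well above background on all 40 arrays, against 27 of the 50 lower members and 5716 of the 9092 probes, and 10 higher members were saturated on at least 1 array, against 1 lower member and 260 of the 9092 probes. A saturated spot understates a high value. Outlier marks touched 0.65% of the values of higher members, 1.15% of those of lower members and 0.63% of those of all 9092 probes.

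NP60 was also compared with NP20, a difference that the rule did not use although it used the same arrays. In adults the higher members lay lower with NP60, with a median difference of -1.89, and 42 of 50 were below 0. The lower members had a median difference of 0.73 with 41 of 50 above 0, and over the 9092 probes the median difference was 0.03 with 47.2% below 0. limma, with Benjamini-Hochberg adjustment over 12547 probes, called 0 of the 100 members and 0% of all tested probes. At an unadjusted p under 0.05 the counts were 19 higher members, all below 0, and 5 lower members, all above 0, against 3.91% of the tested probes. Of the higher members, 32 followed 1 pattern over the arrays, and the rule chose on these same arrays. The members are thus not independent, and no dose effect is read from such counts in either stage. A member's 95% interval had a median half-width of 2.36 in the higher list and 1.90 in the lower list. Without adult NP20 B the median difference of the lower members was -0.02, and that of the higher members was -1.47.

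In juveniles the higher members had a median NP60 minus NP20 difference of -0.78, with 38 of 50 below 0, and the lower members one of 0.16, with 32 of 50 above 0. Both values depended on single arrays. The first was -0.09 without NP20 D, -0.17 without NP60 A, -0.21 without NP20 A and -2.11 without NP60 B, and the second was 0.39 without NP20 B, while without NP20 C it turned just below 0, with 27 of 50 members below 0. limma called 0 members and 0% of 12880 probes, and at an unadjusted p under 0.05 it passed 0 higher and 3 lower members, against 3.49% of the tested probes. The dose difference was also compared between stages. The interaction of stage and dose gave 0 called members (0% of 13282 probes) and 6 at an unadjusted p under 0.05, against 2.88% of the tested probes.

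The members with the smallest p in these comparisons were not called. In adults DM11842P3, a lower member, read 4.65, 4.12, 4.78 and 4.83 with NP60, against -5.06, 4.96, 4.36 and -1.02 with NP20, a difference of 3.78 (SE 1.44, limma adjusted p 1.00). The NP60 values lay inside the range of the NP20 values. The higher member DM08189P1 read 1.64, 4.61, 1.77 and 2.15 with NP60, against 7.39, 2.97, 4.92 and 5.18 with NP20, where the highest value was saturated, a difference of -2.58 (SE 0.79, limma adjusted p 1.00). Its NP60 arrays lay below the NP20 arrays except array C.

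Among juveniles, the lower member DM04371P3 read 1.13, 0.18, -0.24 and 0.65 with NP60, against 0.08, -1.89, -1.22 and -1.22 with NP20, a difference of 1.49 (SE 0.46). The lower member DM04721P2 read 0.03, -0.60, -2.20 and -0.71 with NP60, against 0.05, 0.64, 0.10 and -0.02 with NP20, a difference of -1.06 (SE 0.36). Both had a limma adjusted p of 1.00, and in both the groups overlapped. In the interaction the smallest p in each direction belonged to DM04721P2, whose dose difference in adults minus that in juveniles was 1.93 (SE 0.54), and to DM08189P1, for which it was -2.51 (SE 0.99), both with a limma adjusted p of 1.00.

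The serotonin reuptake inhibitors give values of the members that the rule did not use, apart from the background marks of those arrays. Set against acetone, the higher members had a median FX40 change of 0.17 in adults and -0.20 in juveniles, and a median FV10 change of 0.22 in adults and 1.54 in juveniles. The lower members had a median FX40 change of -0.87 in adults and -0.65 in juveniles, and a median FV10 change of -0.33 in adults and -0.03 in juveniles. These changes share the acetone arrays with the nonylphenol changes, so no agreement between them is read. The juvenile FV10 arrays were not alike. The median of the higher members was -1.59 on A, -0.26 on B, 1.03 on C and -2.21 on D, and 14, 33, 42 and 9 of the 50 members lay above every juvenile acetone array, beside 41.8%, 35.2%, 18.8% and 27.9% of all 9092 probes. Of these, B and C lay above the highest acetone array, and in the largest correlation set they had medians of 0.13 and 2.05. Elsewhere the median ran from -2.69 to -1.89 on adult FX40 arrays, from -3.10 to -2.16 on adult FV10 arrays and from -2.50 to -1.60 on juvenile FX40 arrays.

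FX40 was compared with FV10 directly, since this difference needs no acetone array. In adults the median difference was 0.09 for the higher members, with 25 of 50 above 0, and -0.51 for the lower members, with 36 of 50 below 0. The median over the 9092 probes was -0.06, with 55.3% below 0. limma called 0 of the 100 members and 0% of 12547 probes, and at an unadjusted p under 0.05 it passed 2 higher and 7 lower members, against 7.94% of the tested probes. Without adult FX40 B the median of the lower members was -0.18, and that of the higher members turned just below 0 without FX40 B or without FV10 E. In juveniles the median difference was -1.69 for the higher members, with 37 of 50 below 0, and -0.67 for the lower members, with 42 of 50 below 0. The median of the 9092 probes was 0.00, with 50.2% below 0. The members are not independent, so no inhibitor difference is read from such counts in either stage. limma called 0 of the 100 members, against 0.0155% of 12880 probes and 0.022% of the 9092, and at an unadjusted p under 0.05 it passed 3 higher and 5 lower members, against 17.2% of the tested probes. Without juvenile FV10 C the median of the higher members was -0.98 and limma called 2 members. With 1 array left out, the calls over all tested probes ran from 0 to 883, so nothing is read from these 2. Without juvenile FX40 B the median of the lower members was -0.32. Half-widths of the 95% intervals had medians of 2.69 for the higher and 1.44 for the lower members in juveniles.

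The smallest p in adults belonged to the higher member DM03630P1, which read -3.99, -4.92, -4.97 and -4.58 with FX40, where 2 of 4 arrays were well above background, against -2.01, -2.49, -1.71 and -2.40 with FV10. Its groups did not overlap, and the difference was -2.46 (SE 0.57, limma adjusted p 0.554). The lower member DM04851P1 read 0.69, 4.60, 4.25 and -0.33 with FX40, against -0.73, 0.04, -0.06 and -1.56 with FV10, a difference of 2.88 (SE 1.16, limma adjusted p 0.627). In that probe 2 of the FX40 arrays stood far above the others.

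For juveniles the lower member DM06656P1 read 2.88, 1.60, 0.38 and 1.64 with FX40, against 4.40, 4.07, 3.31 and 4.06 with FV10, a difference of -2.33 (SE 0.61, limma adjusted p 0.131) with no overlap. The higher member DM12725P1 read 4.10, 2.49, 2.57 and 2.42 with FX40, against 1.90, 2.84, 0.74 and 0.65 with FV10, a difference of 1.36 (SE 0.57, limma adjusted p 0.247) with overlapping groups. The interaction of stage and inhibitor gave 0 called members (0% of 13282 probes) and 5 at an unadjusted p under 0.05, against 3.82% of the tested probes. Its smallest p in each direction belonged to DM04851P1, at 3.62 (SE 1.41), and DM12725P1, at -3.05 (SE 1.24), both with a limma adjusted p of 1.00.

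The inhibitor arrays, of which the rule used the background marks only, also show how far the members varied together. Over the 8 FX40 and FV10 arrays of a stage, after each group's mean was taken off, the median pairwise correlation was 0.12 in adults and 0.41 in juveniles among the higher members, 0.28 and 0.43 among the lower members, and 0.03 and 0.02 among the 9092 probes. Pairs share the array, and with 8 arrays single correlations are loose. The median within-group SD was 0.82 in adults and 1.43 in juveniles for the higher members and 0.96 and 0.82 for the lower members, against 0.50 and 0.52 over the 9092 probes. In juveniles all 50 higher members had an SD above the median of the 9092 probes, and in adults 41 did. The lists were not matched to the 9092 probes by level. The median level was -1.66 for the higher and 0.45 for the lower members, against -1.05 for the 9092 probes.

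Stage was compared on the FX40 and FV10 arrays, whose values the rule did not use apart from their background marks. Of the 100 members, limma called 17, while 36.5% of the 13282 tested probes and 41.9% of the 9092 probes were called. Among the higher members 1 was higher in adults and 3 were lower, and among the lower members 12 were higher in adults and 1 was lower. The median adult minus juvenile difference was -1.16 for the higher members, with 42 of 50 below 0, and 0.24 for the lower members. All 9092 probes had a median of 0.06. The count was 9 with a replicate block and 34 when only the FX40 and FV10 groups entered the fit. Over all alternatives the calls among all tested probes ran from 2041 to 5274, beside 4853 in the main fit.

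The 2 lower members with the largest called differences were higher on every adult FX40 and FV10 array than on any juvenile one of these groups. Probe DM11842P3 read 2.91, 4.88, 5.27 and 5.44 on adult FX40 arrays and 4.71, 5.50, 5.27 and 5.15 on adult FV10 arrays, against -0.13, -3.92, -4.49 and -4.52 on juvenile FX40 arrays and -2.75, -3.05, -2.85 and -3.66 on juvenile FV10 arrays. The difference was 8.06 (SE 0.84, limma adjusted p 2.35e-09), and within the 5 slides holding FX40 or FV10 arrays of both stages it lay between 6.56 and 9.76. Probe DM11670P2 read 3.34 to 4.78 on the adult FX40 arrays and 3.33 to 4.69 on the adult FV10 arrays, against -4.34 to -2.65 on the juvenile FX40 arrays and -4.30 to -3.17 on the juvenile FV10 arrays. Its difference was 7.88 (SE 0.41, limma adjusted p 1.95e-16), between 7.21 and 9.01 within the 5 slides.

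The higher members DM02718P2 and DM07809P1 were lower in adults. DM02718P2 read -2.48, -3.21, -2.56 and -2.08 on adult FX40 arrays and -2.98, -2.32, -1.36 and -2.42 on adult FV10 arrays, against -1.54, -1.27, 1.55 and -1.55 on juvenile FX40 arrays and 1.57, 4.72, 6.83 and -0.30 on juvenile FV10 arrays. Its difference was -3.68 (SE 1.40, limma adjusted p 0.0379), and limma's adjusted p was 0.0940 without juvenile FV10 C and 0.182 with a replicate block, in a range of 0.00228 to 0.182 over 51 alternatives, 13 of which lost the call. DM07809P1 read -1.03, -1.51, -2.04 and -1.63 on adult FX40 arrays and -1.37, -1.95, -2.81 and -1.41 on adult FV10 arrays, against -0.42, -0.45, 0.55 and -0.11 on juvenile FX40 arrays and 1.05, 4.003, 6.07 and 1.16 on juvenile FV10 arrays. Its difference was -3.20 (SE 1.11, limma adjusted p 0.0211), and limma's adjusted p was 0.0584 without juvenile FV10 C and 0.245 with a replicate block, in a range of 0.000561 to 0.245 over 52 alternatives, 3 of which lost the call. Of the FX40 and FV10 arrays, both probes were highest on juvenile FV10 C, which was also the highest juvenile FV10 array for the list as a whole.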

How the data were processed

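Per the file headers, Feature Extraction 10.7.3.1 of Agilent read the scans. The deposited intensity of each spot is linear and already background-subtracted, with marks (0 or 1) for well above background, saturation and outliers. The sources used here do not give the processing of a deposited log2 table, which followed quantile-normalized log2 signals centred within a stage (correlation per array 0.959 to 1.000) and served as an alternative. Its column medians ran from -0.10 to 0.11.

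From the intensities, log2 values were taken, the array's 75th percentile over non-control spots was subtracted, and spots of a probe were averaged, outlier-marked and saturated spots included as the membership rule has it. The members and lists were chosen with earlier results of these data known. Comparisons used limma 3.58.1 in R 4.3.3 (lmFit, eBayes) on all groups of a stage, or on all 40 arrays for stage differences and interactions, with Benjamini-Hochberg adjustment over all probes well above background on at least 4 arrays and a threshold of 0.05. The fit was tested on simulated data. Array brightness was compared by exact permutation tests.

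Probes named are the first 2 of each list by the rule, and per tested comparison the called members with the largest difference in each direction (2 at most), or else the member with the smallest p in each direction. The files pair no probe ID with a gene, and 0 IDs were found in a RefSeq gene table (assembly ASM2063170v1.1). The highest correlation between 2 arrays was 0.974. The number of arrays limits the precision. Alternatives were normexp correction (offset 50, planned on the foreground signal and run on median signals), quantile normalization, the deposited table, other filters, only the groups compared, the replicate letter or slide as a block, array weights, brightness as a covariate, outlier-marked spots left out, and each array left out. Requiring the background mark on every spot, and leaving out juvenile FV10 A and B together, were added after seeing the data.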

Additional observations from a re-analysis of the deposited data

Results flagged for a closer look

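In 21 of 170 groups of 4 arrays, checked for the medians of both lists and for each probe named above, 1 array lay so far from the other 3 that its gap to them passed Dixon's 95% critical value. Chance gives about 1 in 20 groups, and the probes were chosen for large changes, so no pattern is read from the number. For the median of the 50 higher members, adult NP60 C stood high at 0.48 and adult FV10 E low at -3.10.

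Some arrays recur. Adult NP60 C was the high array for DM04554P2 (-0.076), DM02718P2 (5.82) and DM07809P1 (3.82). Juvenile NP60 B was the high array for DM06785P4 (6.09), DM03630P1 (2.60) and DM07809P1 (6.27). Juvenile acetone D was high for DM02718P2 (4.47) and DM07809P1 (1.999) and low for DM14525P1 (-1.02). In the juvenile FX40 group, array C was high for DM02718P2 (1.55) and low for DM03630P1 (-6.62), and array A was high for DM11842P3 (-0.13) and DM12725P1 (4.10).

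The remaining single arrays were adult FX40 F (-3.42) and adult acetone F (-3.81) for DM06785P4, adult FV10 A for DM04371P3 (-2.57), juvenile NP60 C for DM04851P1 (0.36), adult FX40 B for DM08189P1 (1.64) and adult FX40 G for DM11670P2 (3.34). Whether these arrays differ by the animals sampled or by the hybridisation was not tested.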

How the results depend on the processing

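Chosen again under other settings, the rule kept 25 of the 100 members with normexp correction and 45 with no filter on dim probes. It kept 74 to 95 with 1 array left out. With probes well above background on every array it kept 34. Only 7 higher and 27 lower members met that filter, so the rule could keep no others. The median adult change of the higher members was 0.31 with normexp, and their median adult NP60 change was -0.40 beside -0.38 over all 9092 probes. The lower members' median adult NP60 change with normexp was -0.379, beside -0.376 over all 9092 probes. Leaving out 1 array, the median changes ran from 1.61 to 2.11 (higher, adults), 1.22 to 2.07 (higher, juveniles), -1.42 to -0.74 (lower, adults, the last without NP20 B) and -1.31 to -0.85 (lower, juveniles). Called members stayed at 0 for NP60 minus NP20 and both interactions with each array left out (0 to 0). For FX40 minus FV10 they were 1 in adults with array weights, where 30 of all tested probes were called. With 1 array left out they were 0 to 1 in adults (1 without adult NP20 B), beside 0 to 2 of all tested probes. In juveniles they were 0 to 2 (2 without FV10 C), beside 0 to 883 of all tested probes. The 17 members called for stage became 11 with normexp, 34 with only the groups compared and 9 with the replicate block. They were 14 to 20 with 1 array left out. With probes well above background on every array, 11 were called. Only the 7 higher and 27 lower members that met this filter were tested there. Among all tested probes the calls for stage, 4853 in the main fit, ran from 2041 to 5274 over all alternatives and from 4511 to 4970 with 1 array left out. Same-letter arrays did not deviate together throughout (correlation -0.27 to 0.36 in adults, 11 of 20 pairs over 0.1; -0.35 to 0.45 in juveniles, 12 of 40), so the letters were not taken as pairs, and the replicate block changed no other count of called members. Of the alternatives added after seeing the data, the background mark on every spot kept 98 members, and leaving out juvenile FV10 A and B together gave 13 members called for stage and 0 for FX40 minus FV10. The cause of these shifts was not tested. Dim and saturated spots limit the values of single probes.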
